A study of Mus musculus with 8 samples.

Results

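The genes described here handle iron in the body or set the level of hepcidin, the liver hormone of iron balance. They were 10 genes chosen by their known roles (Hamp, Tfr2, Tfrc, Slc40a1, Fth1, Ftl1, Bmp6, Smad6, Smad7 and Id1), out of 21938 protein-coding genes. This choice, and that of a wider list used below, was made with earlier results of these data known. Each gene was searched for open chromatin regions that overlapped its body or lay within 10 kb of it. ATAC-seq, in which a transposase cuts accessible DNA, was run on nuclei of frozen adult liver from C57BL/6 mice (C57BL/6J in the study's methods), with 4 control libraries and 4 Alb-D2KO libraries of 50000 nuclei each. In Alb-D2KO mice Dio2, the gene of the deiodinase that activates thyroid hormone, is inactivated by a Cre recombinase driven by the albumin promoter, so that the deletion is aimed at hepatocytes while the nuclei came from whole liver. The other group is labelled control, with the word cre in its sample titles, and the study describes control mice that express Cre. The labels give the stage of both groups as adult without an age. The values were 8031 regions that were open in control liver but were not called in Alb-D2KO liver, named RCAs for reduced chromatin accessibility, and 250 regions open only in Alb-D2KO liver.

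Hepatocytes make hepcidin, the product of Hamp, which binds the iron exporter ferroportin (Slc40a1) and causes its breakdown, so that less iron enters the blood. Liver endothelial cells release BMP6 when iron is high, and hepatocytes answer through BMP receptors and SMAD proteins that raise transcription of Hamp and of the feedback inhibitors Smad6 and Smad7 and of Id1. Transferrin receptors take in or sense circulating iron, and ferritin, built from Fth1 and Ftl1 chains, stores it.

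At least 1 RCA lay within 10 kb of 8 of the 10 genes, compared with 25.1% of all protein-coding genes. Together there were 11 RCAs, and 5 members (Tfr2, Slc40a1, Bmp6, Smad6 and Smad7) carried one inside the gene body, compared with 15.7% of coding genes. No region open only in Alb-D2KO liver lay within 10 kb of any member, where 1.01% of coding genes had one. None of the 11 RCAs came within 200 bp of a member's gene start, and the closest was 1506 bp from it, upstream of Hamp. Few coding genes had an RCA there, as 3.14% of 21414 with RCAs on both sides had their start in one. The absence is thus no trait of the members. The signal was lowest at Hamp, Tfrc and the first Smad7 region and highest at Tfr2 and Slc40a1. Each list came from 1 pooled call per genotype, so that no value below has a replicate error and no difference between genotypes was tested. In bulk liver, fewer open nuclei of a cell type and less opening per nucleus cannot be told apart.

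The area under the curve (AUC) of a region is taken from the −log10 p of the peak caller, and was the measure of signal used. How the caller's threshold enters this area was not examined, so the AUC per base is not read as a mean height. Over the 11 RCAs the AUC ranged from 200.4 to 581, with a median of 287, and the median of all RCAs was 278. Their widths ran from 165 to 646 bp around a median of 411 bp, where all RCAs had a median of 326 bp. By class, 1 overlapped a promoter, 4 an exon, 5 an intron and 1 was intergenic. Among all RCAs these classes held 19.4%, 10.2%, 40.0% and 30.3%. Exonic regions thus stood for 4 of the 11, but the exons of 2 of them belonged to neighbouring genes.

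**Figure D1:**
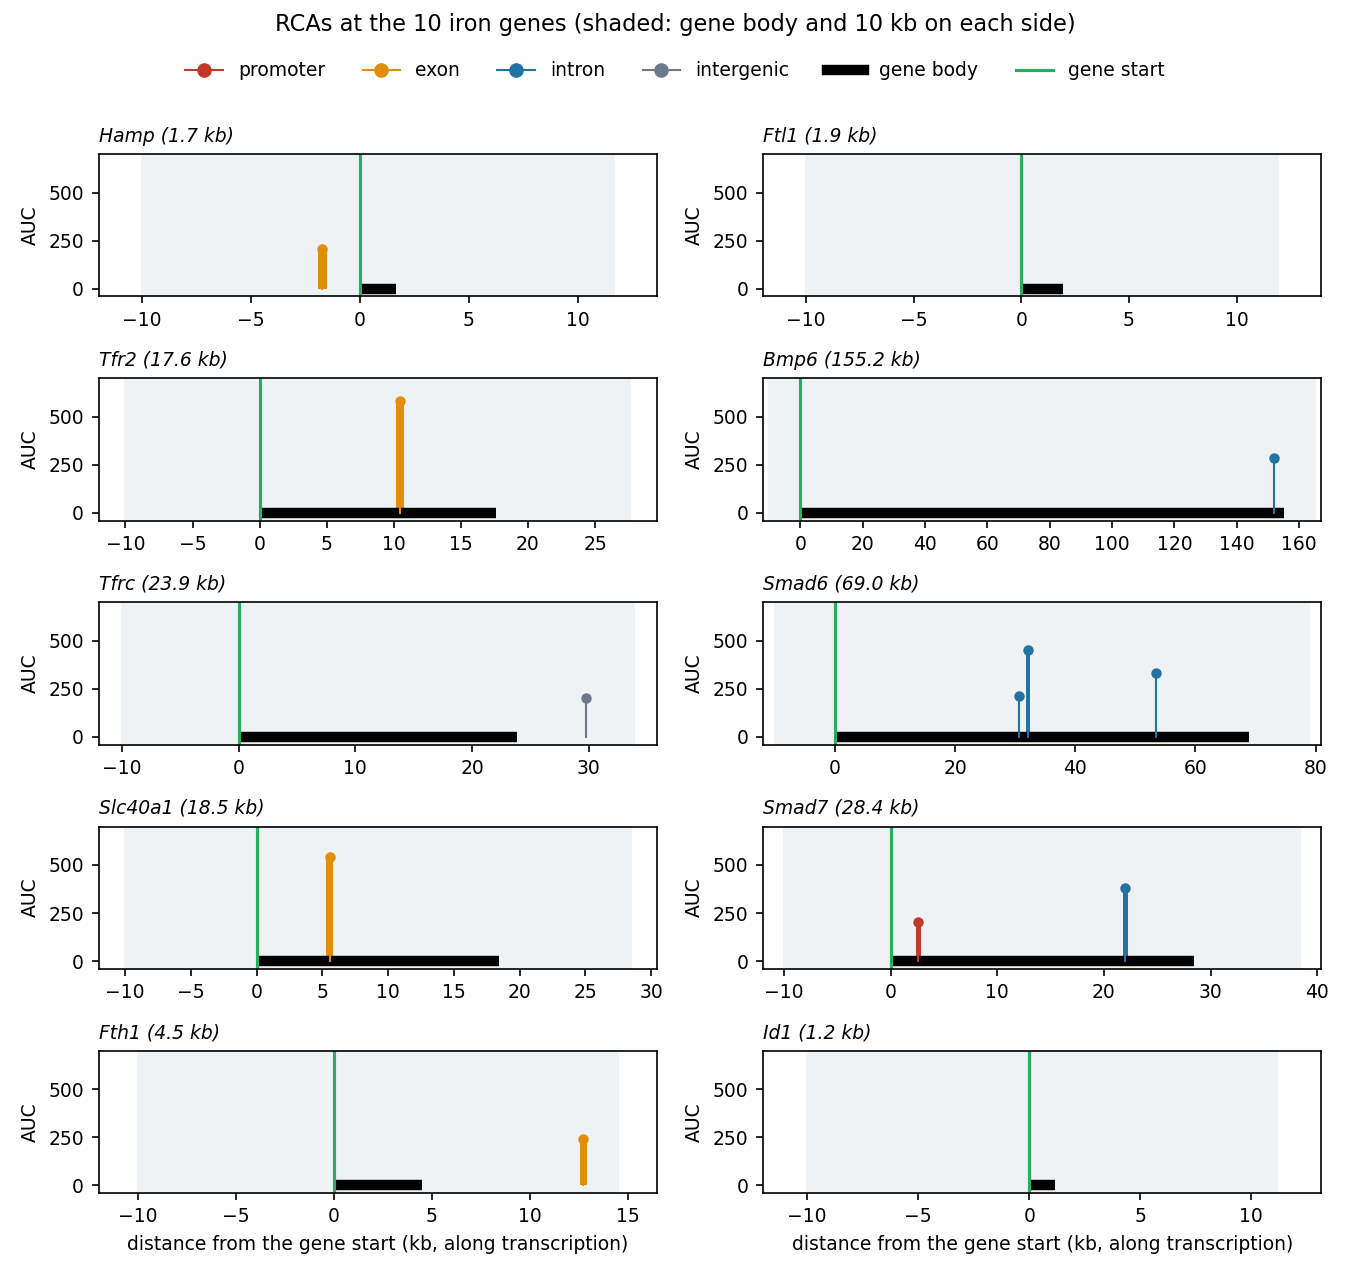
Each panel shows 1 gene, with distance from its start in kb along transcription on the horizontal axis and the AUC of each RCA on the vertical axis. The black bar is the gene body, the green line the gene start, the shading the body and 10 kb on each side, and the colour the class of the region. The markers stand away from every green line, the nearest at 1506 bp from the Hamp start, and Ftl1 and Id1 have none.

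The sequences shown here are those at the RCAs nearest to Hamp and Tfrc, at the Hamp promoter, and at the summits of the regions of highest signal. The letters GGCGCC are those of the BMP-responsive element known from the hepcidin promoter, and TTCNNNGAA those of a STAT site. Of the 11 RCAs, 2 held GGCGCC on either strand, that of Hamp and that of Tfrc, and on average 11.03% of RCAs of similar width (up to 25% wider, or narrower in the same ratio) did. In the Hamp region the letters stood at chr7:30945656-30945661, with the middle of the match 11 bp from the summit. In the Tfrc region they lay at the summit itself. These are matches of letters, and which protein binds there was not tested. The study reported CTCF motifs as enriched in promoter RCAs, and CTCF letters were not searched here. Whether GGCGCC in the Hamp and Tfrc regions is part of a CTCF site was thus not tested. The 30 bases shown from the Hamp region are chr7:30945633-30945662, and the 121 bases from the Tfrc region are chr16:32638608-32638728, both on the plus strand of mm10. Capitals mark GGCGCC and, in the Tfrc sequence, TGACCT, which is AGGTCA on the other strand.
Hamp RCA summit: agggccacaagggtcacagcacaGGCGCCa
Tfrc RCA summit: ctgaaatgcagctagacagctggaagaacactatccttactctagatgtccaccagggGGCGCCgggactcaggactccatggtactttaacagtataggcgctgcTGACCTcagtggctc

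The promoter of Hamp itself was not in an RCA, and is shown because its elements are the textbook targets of BMP and STAT3 signals. These 247 bases run up to the gene start at chr7:30944033-30944279 on the minus strand, and capitals mark GGCGCC and TTCTTGGAA. The former began 106 bases before the start of Hamp and the latter 94 bases before it. Of 32851 RefSeq promoters of mouse, 9.59% held GGCGCC and 7.02% held TTCNNNGAA in the 250 bases before the start.
Hamp promoter: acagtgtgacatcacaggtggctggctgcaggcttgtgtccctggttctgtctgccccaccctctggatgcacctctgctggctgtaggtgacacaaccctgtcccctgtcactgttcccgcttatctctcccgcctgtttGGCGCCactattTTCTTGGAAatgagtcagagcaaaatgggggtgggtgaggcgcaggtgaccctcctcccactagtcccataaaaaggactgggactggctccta

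The core recognition letters of nuclear receptors, AGGTCA, to which the thyroid hormone receptor also binds in suitable pairs, stood in 7 of the 11 RCAs. On average 35.6% of RCAs of similar width held them. The 7 were the regions of Hamp, Tfr2, Tfrc and Slc40a1, 2 of the regions of Smad6 and 1 of Smad7, and the regions of Fth1 and Bmp6 did not hold these letters. The summits of Tfr2, Slc40a1 and the widest Smad6 region are shown, as the regions of highest signal of their genes, at chr5:137580262-137580382, chr1:45920926-45921046 and chr9:63989897-63990017 on the plus strand. Capitals mark AGGTCA or TGACCT and, in the Smad6 sequence, the E-box CACGTG.
Tfr2 RCA summit: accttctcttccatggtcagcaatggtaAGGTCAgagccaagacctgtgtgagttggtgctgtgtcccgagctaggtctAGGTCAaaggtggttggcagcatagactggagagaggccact
Slc40a1 RCA summit: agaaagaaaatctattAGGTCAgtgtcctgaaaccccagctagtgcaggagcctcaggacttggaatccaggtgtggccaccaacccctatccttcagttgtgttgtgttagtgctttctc
Smad6 RCA summit: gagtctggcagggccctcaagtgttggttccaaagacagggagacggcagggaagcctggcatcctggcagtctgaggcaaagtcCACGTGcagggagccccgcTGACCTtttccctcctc

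Each of the other letters searched was in fewer of the regions than AGGTCA. The SMAD palindrome GTCTAGAC was in 0 of the 11 regions and on average in 0.468% of RCAs of similar width. The STAT letters TTCNNNGAA were in 2 regions (Slc40a1 and Fth1; 12.1% of similar RCAs). The antioxidant response letters TGACNNNGC were in 2 (Tfr2 and Smad6; 20.7%), as were the C/EBP letters TTGCNNAA (Bmp6 and Smad6; 21.1%). The E-box CACGTG was in 3 (Tfr2, Smad6 and Smad7; 10.01%). All motifs were read on both strands, and a match is a match of letters only. The GC content of the 11 regions had a median of 53.3%, and that of all RCAs was 51.9%.

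For Hamp, the question was whether the hormone gene lost open chromatin in the Alb-D2KO liver. Its RCA (chr7:30945538-30945967) was 430 bp wide with an AUC of 205, higher than only 4.36% of RCAs, and its summit had a −log10 q of 2.79. The region lay 1506 bp upstream of the Hamp start, with its summit 1615 bp away. All of its bases fell in the untranslated part of exon 10, the last exon, of Usf2, which encodes an E-box binding transcription factor and is transcribed from the same strand. It also overlapped the noncoding gene Gm44662. The next RCA was 20419 bp from Hamp. The signal at Hamp was thus near the lower limit of the list, which began at an AUC of 200.004.

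The caller numbered control regions in genome order, and numbers missing from the list of RCAs were read as control regions that also overlapped an Alb-D2KO region, called kept here. The full call of control regions was not analysed here, so this reading, on which each count of kept regions rests, was not checked. The RCAs on both sides of the Hamp start carried the consecutive numbers 8660 and 8661, which by this reading leaves no control region in the 132.7 kb between them, the Hamp promoter included. Hamp2, the second hepcidin gene of the mouse, lay in the same stretch. Among 21414 coding genes with RCAs on both sides, 5.74% had no kept region in the stretch around a start outside an RCA, and 3.14% had their start in an RCA. The median coding gene had 4 kept regions there. Around the other 9 members the numbers left room for 1 to 7 kept regions. The order does not give the positions of kept regions, and whether one lay on a given start is not known from the lists.

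**Figure D2:**
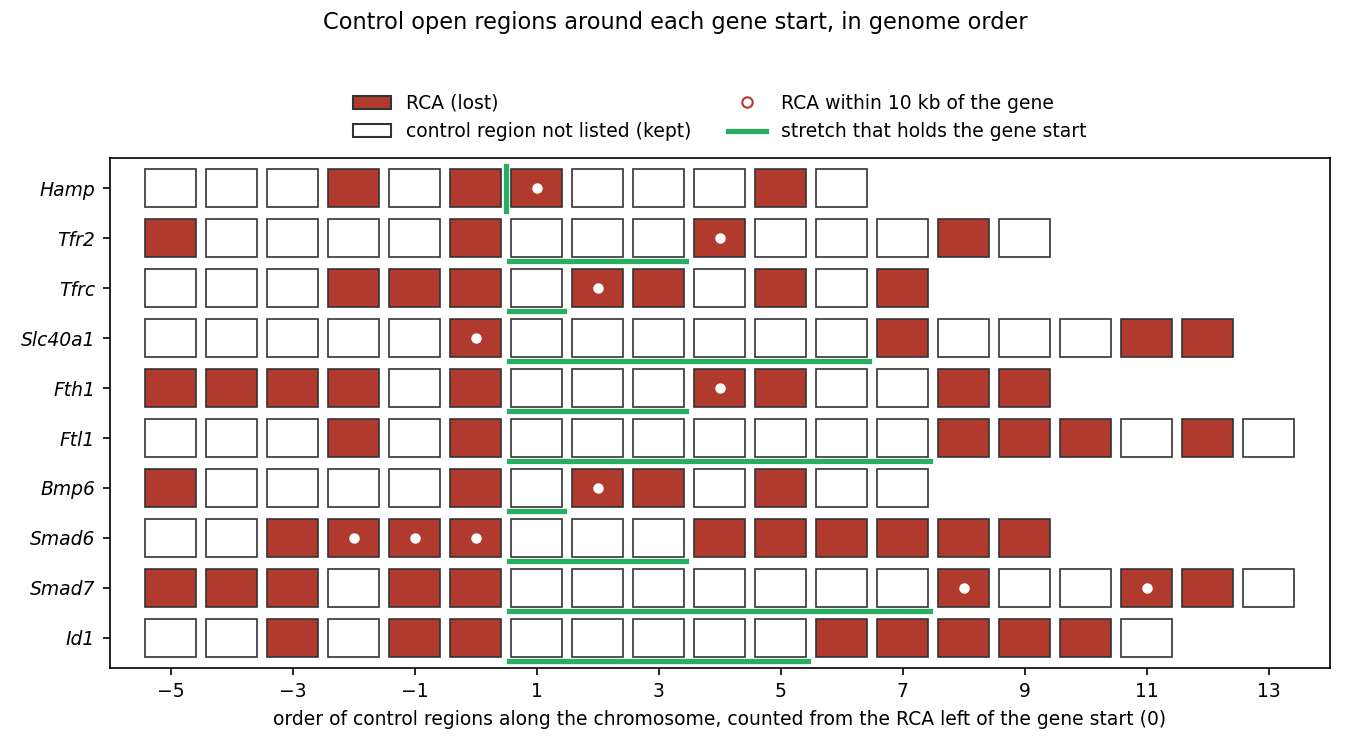
Each row shows the control regions around 1 gene start in chromosome order, each box being 1 region, filled where it was lost in Alb-D2KO liver and white where its number was not listed, read as kept. The horizontal axis counts regions from the RCA left of the start, and green marks the stretch that holds the start. Hamp is the only row with no box over green, and the white dots of Smad6 fall on 3 filled boxes in a row.

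The transferrin receptors differed in where their RCA lay. Tfr2, the sensor of iron-loaded transferrin on hepatocytes, had the RCA of highest signal among the 11, with an AUC of 581, above 97.2% of all RCAs. It spanned 591 bp (chr5:137580026-137580616), 10186 bp downstream of the gene start, and covered 120 coding bases of exon 11 of 19 together with parts of introns 10 and 11. An alternative start of Tfr2 was annotated 1133 bp away. Tfrc, the receptor that carries transferrin iron into cells, had the RCA of lowest signal, with an AUC of 200.4, above 0.361% of RCAs. That region was 165 bp wide (chr16:32638580-32638744) and intergenic, 5786 bp beyond the Tfrc body and 29660 bp from its start. It was closer to a start of Tnk2, a tyrosine kinase gene, at 5130 bp. The AUC per base was 1.21 at Tfrc and 0.983 at Tfr2. The list began at an AUC of 200.004, so a region of 165 bp could be listed only with a high AUC per base. The height of these regions therefore cannot be compared by that value. The summit −log10 q was 3.19 at Tfrc and 3.63 at Tfr2.

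Slc40a1, the only known cellular iron exporter, carried the RCA with the highest summit of the 11. Its −log10 q was 4.17, above 99.5% of all RCAs, and its AUC was 543, above 96.2%. The region was 553 bp wide (chr1:45920687-45921239), 5284 bp downstream of the gene start, and covered 84 coding bases of exon 3 of 8 and part of intron 3. The next RCA was 5585818 bp from the gene body, and 6 kept control regions were numbered between the RCAs on either side of the start.

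The ferritin genes had no RCA in their bodies. Fth1, the heavy chain with ferroxidase activity, had 1 RCA within the window, 367 bp wide with an AUC of 241, above 30.4% of RCAs. It lay 8035 bp beyond the Fth1 body (chr19:9993133-9993499) and in the neighbouring Best1, a chloride channel gene, where it covered 95 coding bases of exon 3 of 12, 218 bp from an annotated Best1 start. Ftl1, the light chain, had no RCA within 10 kb and the nearest was 28358 bp away. Around the starts of both genes kept control regions were numbered, 3 for Fth1 and 7 for Ftl1. Of coding genes of similar length (up to 25% longer, or shorter in the same ratio), 18.1% had an RCA for Fth1 and 17.3% for Ftl1.

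The BMP ligand gene Bmp6 had its RCA at the far end. The region was 235 bp wide with an AUC of 287, above 54.3% of RCAs, and lay in intron 4 of the gene (chr13:38496814-38497048), 151707 bp from the start of this gene of 155 kb. A start of Txndc5, a gene of a protein disulfide isomerase of the endoplasmic reticulum, was annotated 8894 bp from it. Between the RCAs on either side of the Bmp6 start, 344 kb apart, 1 kept control region was numbered.

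The inhibitory SMAD genes carried 5 of the 11 RCAs. Smad6, whose product blocks BMP receptor signals, had 3, a count reached by 3.79% of all coding genes and 5.80% of those of similar length. All 3 were in intron 3, at 30568, 31788 and 53248 bp from the start, with AUCs of 211, 451 and 332. The region at 31788 bp was the widest of the 11, with 646 bp (chr9:63989626-63990271), and its AUC exceeded that of 90.6% of RCAs. The regions were separated by 1026 and 20814 bp, and no kept control region was numbered between them. With the RCA beyond the gene end they made a run of 4 consecutive lost control regions over 73.2 kb, and 23.6% of all RCAs stood in runs of at least that length. From the first to the last RCA within 500 kb of the Smad6 body, the first left out, 68.8% of 16 control regions were lost. Over coding genes the median of this measure was 41.2% with quartiles of 31.8% and 53.3%. It leaves out control regions between the outermost RCAs and the window edges. The whole Smad6 window held 12 RCAs and, interpolated from the region numbers, 23.9 control regions.

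Smad7, which inhibits BMP and TGF-β signals, had 2 RCAs, a count reached by 9.08% of coding genes and 9.14% of those of similar length. The first (chr18:75369921-75370331) was the only promoter region of the 11, since it overlapped an alternative start of Smad7, 2392 bp downstream of the gene start. Its AUC of 204 was above 3.29% of RCAs. The second (chr18:75389313-75389780), in intron 3 and 21784 bp from the start, reached 381, above 81.2%. Between them lay 18981 bp with 2 kept control regions, so that the lost regions of Smad7, unlike those of Smad6, had kept ones among them. Id1, a direct BMP target, had no RCA within 10 kb, the nearest was 29161 bp away, and 5 kept regions were numbered around its start.

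Gene length changed how often an RCA was met. The share of coding genes with an RCA within 10 kb was 7.94% for genes under 1 kb and 36.1% for genes of 100 to 200 kb. The 2 members without one, Id1 (1.16 kb) and Ftl1 (1.94 kb), were among the 3 shortest, and Hamp (1.67 kb) was the other. The share in coding genes of similar length was 10.6% for Id1 and 36.6% for Bmp6, with a mean over the 10 members of 23.8%, where 8 of the 10 members themselves had one. The sum of the mean RCA counts of similar genes was 3.77, and the members had 11. The number of control regions within 500 kb of the gene body was estimated by interpolating between the region numbers of the RCAs. By this estimate members lay in denser surroundings, with a median of 26.0 control regions and 14.1 for coding genes. Taking genes of similar length and similar estimated density, a comparison chosen after seeing the data, the mean share was 32.7%. Slc40a1, beside a stretch of 5591 kb without an RCA, had an estimate of 1.81 and a share of 2.94%, which lowered this mean.

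**Figure D3:**
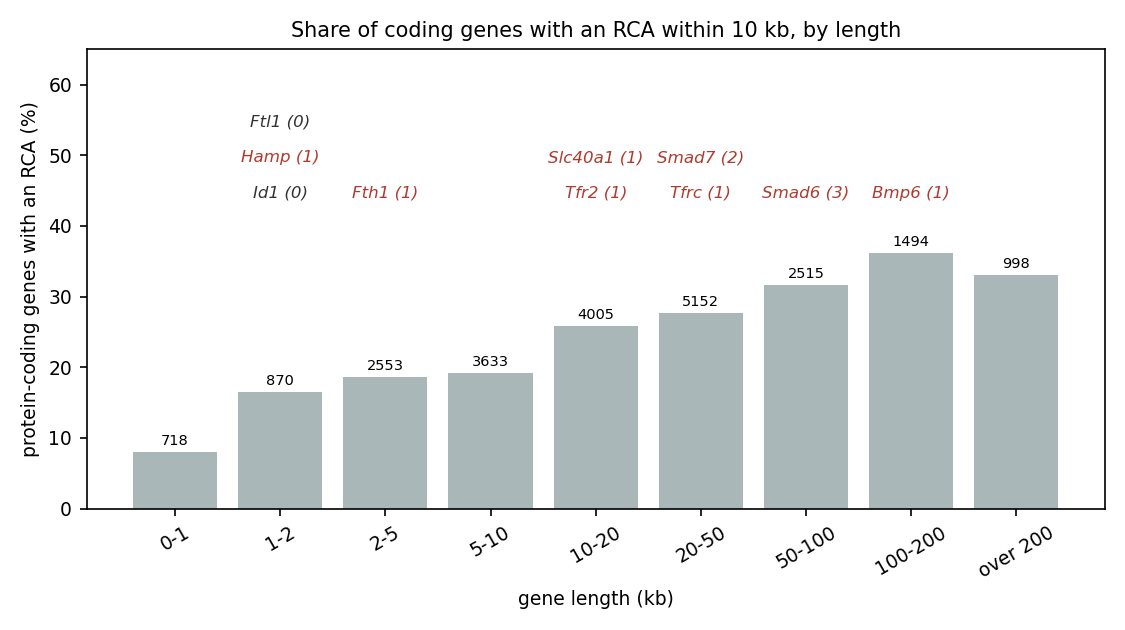
Bars give the percentage of protein-coding genes with an RCA within 10 kb for each class of gene length in kb, with the number of genes above each bar. The members are written over the bar of their length class with their count of RCAs in brackets, and their height on the axis has no meaning. Shares rise from 7.94% to 36.1% and end at 33.1% for genes over 200 kb.

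A wider list of 59 iron and BMP pathway genes held the members and 49 others. Of the 49, 29 had an RCA within 10 kb, 59.2%, and the mean over coding genes of similar length was 26.9%. These genes had 52 RCAs and no region open only in Alb-D2KO liver. Of the 49, 3 had an RCA over their own gene start, Slc39a8, Hp and Acvr2a, with AUCs of 280.3, 467 and 228. Among 21414 coding genes with RCAs on both sides, 3.14% had their start in an RCA.

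Of 7 genes of transferrin, its receptors and iron uptake in the wider list, 6 had an RCA, 11 in all, where the mean share over coding genes of similar length was 28.8%. Slc39a14, which takes up iron not bound to transferrin, had 4 with AUCs from 208 to 470.2. Trf, the gene of transferrin, had 2 with AUCs of 275 and 285, and Slc11a2, an iron transporter of the cell membrane and endosome, had 2 with AUCs of 208 and 279. Iron regulatory proteins bind transcripts of iron genes. Aco1, the gene of the iron regulatory protein that doubles as an aconitase, had 2 intronic RCAs with AUCs of 483 and 434. Ireb2 had 1 at 320.1, which lay in an exon of the neighbouring Hykk, 5747 bp from the Ireb2 body. Pcbp1, a chaperone that delivers iron to ferritin, had the RCA of highest AUC of the wider list, 617 over a width of 1177 bp. This area went with a wide region, as its AUC per base was 0.524. Its summit had a −log10 q of 2.94, above only 28.5% of RCAs. Ncoa4, the receptor for ferritin breakdown, had 1 at 227, and Cp, the ferroxidase ceruloplasmin, had 1 at 282.

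In the hepcidin pathway itself, Tmprss6, the protease that lowers hepcidin by cutting haemojuvelin, had 4 RCAs in its vicinity with AUCs from 226 to 339. Of these, the region at 288 lay in an exon of the neighbouring Kctd17, 2468 bp from the Tmprss6 body. Hjv, the gene of haemojuvelin and annotated as Hfe2, had 1 in an intron at 491. Hfe, the haemochromatosis gene, had 1 intergenic region at 301. Of the 7 BMP ligand and co-receptor genes, 4 had an RCA, where the share at similar length was 26.1%. Of the 4 BMP receptors 3 had one (34.7% at similar length), Acvr1 with 3 regions (247, 326 and 408), Bmpr1a with 1 (406) and Acvr2a with 1. The Bmpr1a region lay in an intron of the neighbouring Mmrn2, 9276 bp from the Bmpr1a body. All 5 SMAD genes had an RCA (29.4% at similar length), and those of Smad1 at 201, Smad5 at 247 and Smad4 at 242 were below the median AUC of all RCAs, 278. Of the 5 BMP targets 3 had one (18.3% at similar length), and Id3 and Atoh8 had 3 each and Id2 had 1, while Id1 and Id4 had none.

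Of 8 genes of haem and haemoglobin handling, 2 had an RCA, a share close to the 25.1% of all coding genes and the 23.7% of those of similar length. They were Hp, the haemoglobin scavenger haptoglobin, with 4 (361, 388, 451 and 467), and Lrp1, a receptor for haem bound to haemopexin, with 3 (277, 332 and 353). Of the mitochondrial iron genes 1 of 4 had one, also close to the share at similar length of 24.6%. It was Iscu, the scaffold of iron-sulfur clusters, at 286. Of the 6 other regulators of hepcidin 5 had one (29.5% at similar length). The interleukin 6 branch had Stat3 (322 and 286), Il6ra (201 and 300.1) and Il6st (219 and 239.6). Furin, the protease that cuts the hepcidin precursor, had 1 at 319. That region lay 154 bp from the Furin body and over an annotated start of the neighbouring Fes. Epas1, the gene of a hypoxia-inducible factor, had 1 at 210.2. The 20 genes beyond Ftl1 and Id1 without an RCA included Hamp2, Bmp2, Bmpr2, Hmox1 and Steap3.

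**Figure D4:**
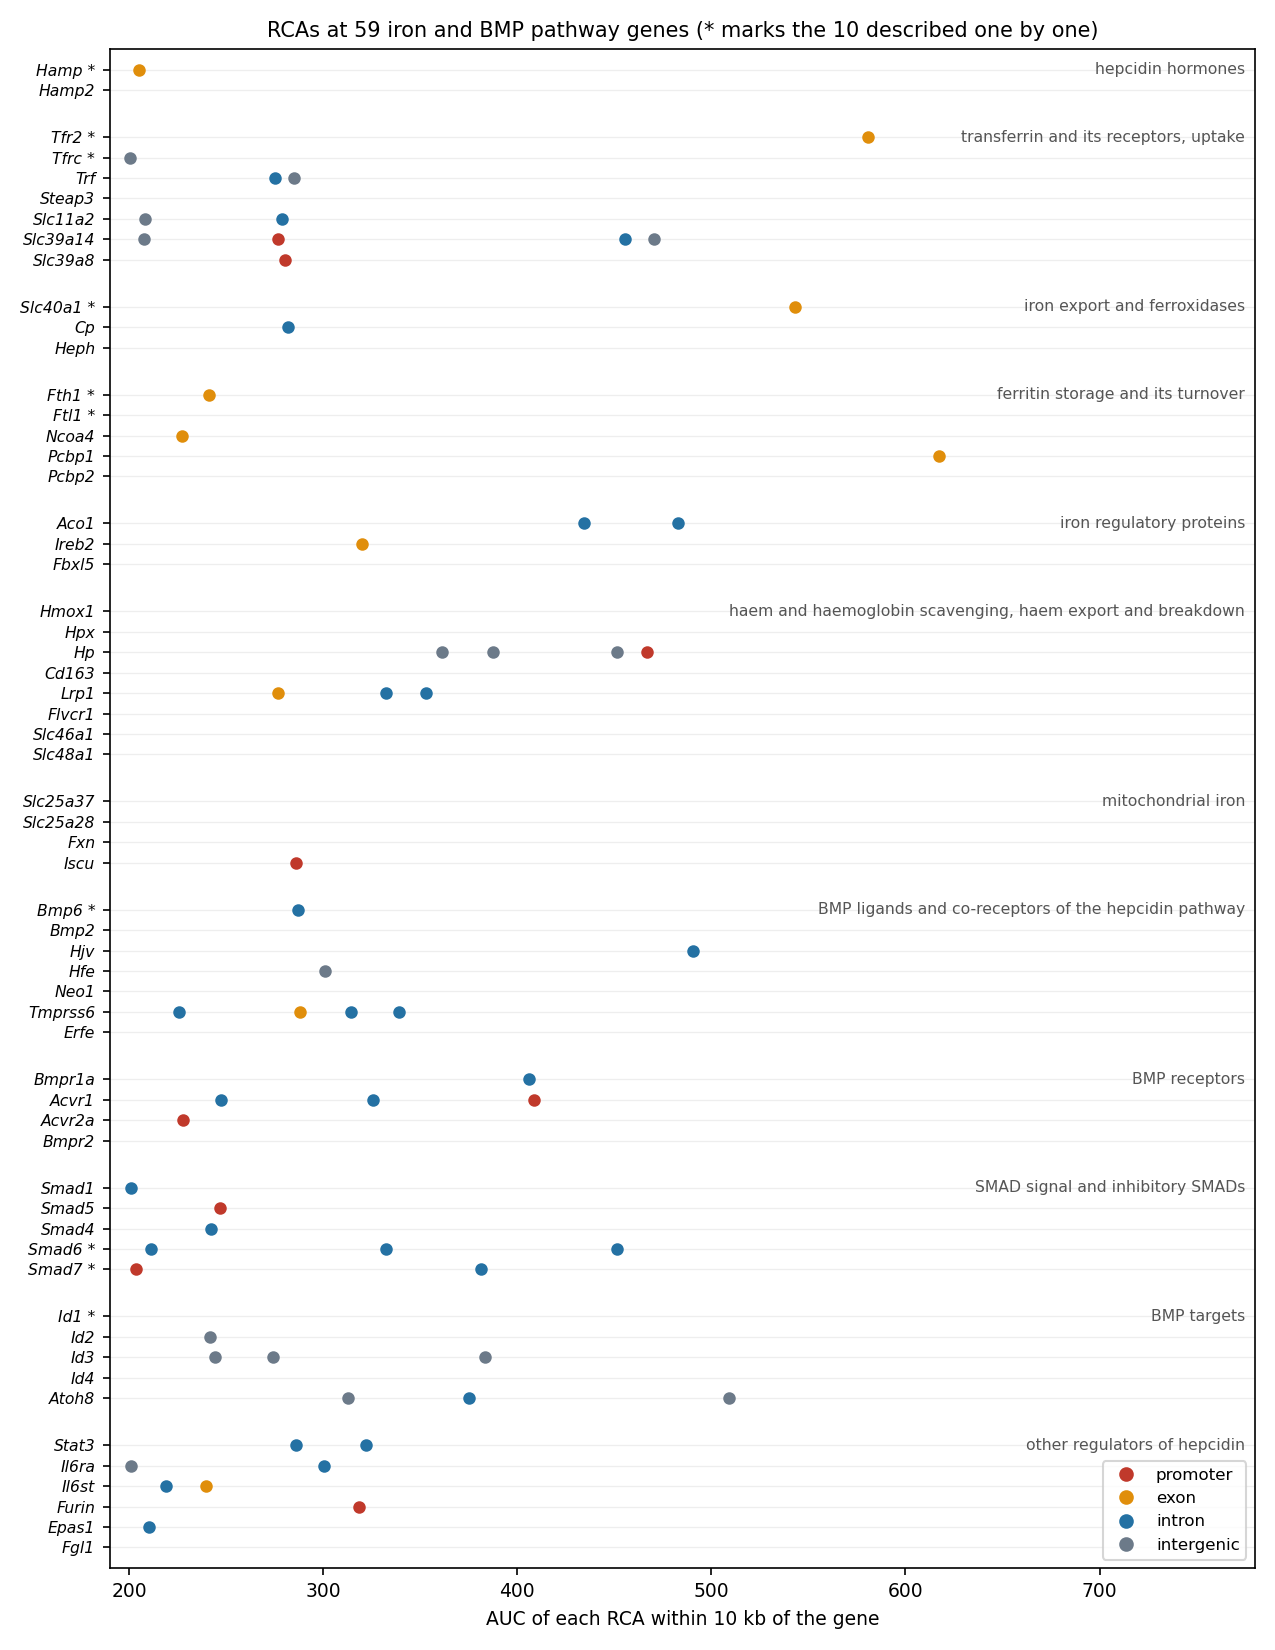
Each row is 1 of 59 genes grouped by role, and each point is 1 RCA within 10 kb, placed by its AUC and coloured by its class. An asterisk marks the members, and rows without a point had no RCA. The points of Tfr2 at 581 and Slc40a1 at 543 lie far to the right, and Pcbp1 at 617 is farther.

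Beyond the window the surroundings of the members also differed. The nearest RCA outside 10 kb was 15344 bp from Fth1, 23000 bp from Bmp6, 28566 bp from Smad6 and 87201 bp from Tfr2. The nearest region open only in Alb-D2KO liver was 329.8 kb from Id1 and 51239 kb from Fth1, with the other members between these. The share of control regions lost was taken from the first to the last RCA within 500 kb of the gene body, the first left out. It was 60% for Fth1, 53.8% for Tfrc, 47.1% for Hamp and 45.2% for Smad7. Lower shares were 42.9% for Bmp6, 40.0% for Id1, 38.2% for Tfr2 and 37.5% for Ftl1. Over coding genes the median of this measure was 41.2%. The share lost over all control regions, 35.9%, is not cut at RCAs and so is not a like measure. Slc40a1 had 1 RCA in its window, too few for a share. Of the 11 RCAs, 8 stood next to another lost control region in the numbering and 3 stood between kept ones, and 64.4% of all RCAs had such a neighbour. Dio2, the targeted gene, had 0 RCAs within 10 kb, and lists of lost regions show neither its deletion nor whether defining liver genes were open.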

How the data were processed

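ATAC-seq was run on liver nuclei of 4 control and 4 Alb-D2KO samples. The authors trimmed adapters (NGmerge), mapped reads to mm10 (BWA 0.7.17; the submitters' processing notes also list FastQC and Picard), and made 1 joint Genrich 0.6 call per genotype, from which regions overlapping the call of the other genotype were taken away. According to the study's methods, Genrich run on single samples found few regions, which the authors judged not to come from ATAC enrichment. They merged these into a blacklist that the joint calls left out. The deposited signal was the AUC of −log10 p over each region. The −log10 q was also deposited by the authors and was that of the summit. The other columns served only for position, number and summit. Depth per library is not known from the lists, so no counting interval was given, and samples entered only through the pooled call of their group.

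The members and lists were chosen with earlier results of these data known. Genes and start sites came from GENCODE M21 (mm10), while the study's methods name another release. A region within 200 bp of any annotated start was put under promoter, and the others under exon, intron or intergenic in this order. Distances ran edge to edge. Genes of similar length were up to 25% longer, or shorter in the same ratio. Kept control regions were counted from missing region numbers, a reading that was not checked. The share lost within 500 kb of a gene body ran from the first to the last RCA there and left out the first. Control regions beyond these RCAs were not counted. Sequences came from the RefSeq genome GRCm38.p6, in which 55 of 55 member transcripts were identical to GENCODE, and promoters from the RefSeq table of that build, in which 7 members were matched. Genes named were the members, every gene of the wider list with a region within 10 kb, and the gene whose start was nearest to a member's region where it was another gene. Usf2, Gm44662, Dio2, Hykk, Kctd17, Mmrn2, Fes and some genes without a region were named after their values were seen. Counts of regions, counts of kept regions and motif matches were tested on simulated data, and the classes were not. Analyses used Python 3.11.15, pandas 2.3.3, numpy 2.4.6 and matplotlib 3.10.9. Alternatives were other distances, the body alone, the gene start, an AUC minimum of 300, a minimum width of 200 bp, merged regions, midpoints, promoter windows of 1000 and 3000 bp, and matching on other starts or density.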

Additional observations from a re-analysis of the deposited data

How the results depend on the processing

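No paired analysis was possible because each list is 1 pooled call per genotype, and for the same reason no library could be left out. The count of 8 members with an RCA within 10 kb became 5 with the gene body alone, 5 within 1 kb, 4 with an AUC of at least 300 and 3 around the gene start in place of the body. The matching shares of coding genes were 15.7%, 17.1%, 12.9% and 16.1%. The count of 11 RCAs became 5 with an AUC of at least 300, 3 around the gene start and 28 within 50 kb. The single promoter RCA became 2 with a window of 1000 bp and 5 with 3000 bp. The share of genes of similar length with an RCA, 23.8%, became 13.9% with the body alone and 42.8% within 50 kb. In the wider list 37 genes became 20 with an AUC of at least 300. The cause of each change is the setting itself, which admits fewer or more regions. Of 39 alternatives, 27 left the count or share within 1.5 times of the reported one, or the median AUC within 1 SD of the 11 regions. The alternative that also matched the density of control regions was chosen after seeing the data. The lists show regions called in one genotype and not in the other, so a region just above the caller's limit in one and just below it in the other counts as lost. Depth per library was not known, and the precision of an AUC could not be given.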
